A study of Mus musculus with 2 samples.

Results

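The genes described here make up the core of the cell division machinery: the A-, B-, D- and E-type cyclins, the cyclin-dependent kinases (CDKs), the CDK inhibitors, the E2F factors, the MCM proteins and 16 further proliferation genes. The rule that picks them uses gene symbols and no expression value, though it was set with earlier results of these data known. They came to 73 of the 20003 genes in the deposited table. The series compared 2 libraries of RNA, 1 per group, from cells labelled RAW 264.7, a mouse macrophage line. In the group M2+GANT61 the cells received GANT61 at 10 µM, which inhibits the GLI transcription factors that Hedgehog signals activate. The group M2+DMSO received only the solvent, DMSO. Both groups had received macrophage colony-stimulating factor at 20 ng/mL overnight and then interleukin 4 at 10 ng/mL, with GANT61 or DMSO added 4 h before the latter. The labels give the exposure to interleukin 4 as 15 min in one text and 24 h in another. The libraries are called the GANT61 library and the DMSO library below, by their labels, and where a pair of values is given the DMSO library comes first.

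Cyclins bind and switch on CDKs. D-type cyclins with Cdk4 or Cdk6 phosphorylate the retinoblastoma family (Rb1, Rbl1, Rbl2), which frees E2F factors to switch on S phase genes, among them the MCM helicase. Later, cyclins A and B with Cdk1 drive mitosis, together with Foxm1, Plk1 and the Aurora kinases. The INK4 inhibitors (Cdkn2a to Cdkn2d) block Cdk4 and Cdk6, and the CIP/KIP inhibitors (Cdkn1a to Cdkn1c) act on CDKs more widely. Ccnd1, Ccnd2 and Foxm1 have been described as GLI targets. Mature macrophages mostly leave the cell cycle, while macrophage lines divide continuously.

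Promoters of 6 members are printed first. All but that of Cdkn1a carry short motifs through which cell cycle genes are commonly regulated. Each is a window of 300 bases from RefSeq (GRCm38.p6, the same build as mm10), with 250 bases before a transcription start and 50 after it, 5′ to 3′ on the gene's strand. Capitals mark matches to 3 motifs, searched on both strands. They are the E2F core (TTCGCGC or TTGGCGC or TTCCCGC or TTGCCGC), the cell cycle homology region or CHR (TTTGAA or TTCGAA) and the CCAAT box (CCAAT). In Cdkn1a alone the capitals instead mark matches to the p53 decamer, a motif added after the data were seen. The first 4 genes include 3 that were higher in the GANT61 library and the B-type cyclin Ccnb2, and the last are the 2 CDK inhibitors that differed most.
Mki67, chr7:135716330-135716629, minus strand: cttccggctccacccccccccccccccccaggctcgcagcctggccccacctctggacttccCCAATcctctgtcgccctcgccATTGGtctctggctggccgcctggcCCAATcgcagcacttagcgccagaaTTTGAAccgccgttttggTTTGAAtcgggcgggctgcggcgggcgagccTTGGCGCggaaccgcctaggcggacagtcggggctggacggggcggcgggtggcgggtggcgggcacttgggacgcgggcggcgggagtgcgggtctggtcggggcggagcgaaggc
Bub1, chr2:127831810-127832109, minus strand: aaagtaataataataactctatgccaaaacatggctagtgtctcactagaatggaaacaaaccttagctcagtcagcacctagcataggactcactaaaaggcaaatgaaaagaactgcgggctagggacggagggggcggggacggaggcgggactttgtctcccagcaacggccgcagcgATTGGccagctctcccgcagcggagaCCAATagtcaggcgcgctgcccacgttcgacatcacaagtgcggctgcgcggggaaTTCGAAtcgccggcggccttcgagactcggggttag
Rrm2, chr12:24708004-24708303, plus strand: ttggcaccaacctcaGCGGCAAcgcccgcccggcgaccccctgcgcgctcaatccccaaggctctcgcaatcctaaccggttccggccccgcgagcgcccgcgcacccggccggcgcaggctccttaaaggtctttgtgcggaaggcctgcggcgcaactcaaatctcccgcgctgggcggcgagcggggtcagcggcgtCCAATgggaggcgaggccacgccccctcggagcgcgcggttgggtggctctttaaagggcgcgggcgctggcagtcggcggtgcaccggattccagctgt
Ccnb2, chr9:70421505-70421804, minus strand: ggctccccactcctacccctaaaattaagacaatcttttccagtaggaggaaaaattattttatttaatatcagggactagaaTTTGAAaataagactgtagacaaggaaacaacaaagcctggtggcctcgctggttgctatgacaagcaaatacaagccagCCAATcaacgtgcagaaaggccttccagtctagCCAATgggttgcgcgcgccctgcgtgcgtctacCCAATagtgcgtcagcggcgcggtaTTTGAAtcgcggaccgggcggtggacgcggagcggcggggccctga
Cdkn1a, chr17:29090729-29091028, plus strand: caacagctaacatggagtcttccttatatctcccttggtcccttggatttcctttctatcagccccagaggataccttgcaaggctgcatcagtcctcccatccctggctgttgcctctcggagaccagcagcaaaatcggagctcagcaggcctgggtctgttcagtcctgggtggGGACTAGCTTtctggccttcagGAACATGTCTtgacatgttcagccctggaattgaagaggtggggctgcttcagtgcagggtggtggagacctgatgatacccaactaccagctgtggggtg
Cdkn2c, chr4:109666707-109667006, minus strand: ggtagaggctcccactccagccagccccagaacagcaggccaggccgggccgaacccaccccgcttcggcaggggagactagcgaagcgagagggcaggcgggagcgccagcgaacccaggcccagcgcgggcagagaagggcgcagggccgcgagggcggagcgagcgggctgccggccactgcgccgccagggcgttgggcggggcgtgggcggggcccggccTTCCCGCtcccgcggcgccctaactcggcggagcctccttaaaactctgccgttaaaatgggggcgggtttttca

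The Mki67 window held 3 CCAAT boxes, 2 CHR matches and an E2F core 67 bases before the start. Bub1 held 2 CCAAT boxes before the start and a CHR after it, and Ccnb2 held 3 CCAAT boxes and 2 CHR matches. Rrm2 had an E2F core and a CCAAT box. The Cdkn2c window, also from the more upstream of 2 starts, held only an E2F core, 25 bases before the start, and the window of the other start held a CCAAT box. The Cdkn1a window, from the more upstream of 2 starts in the table, held none of the 3 motifs. It held 2 p53 decamers, the nearer one 51 bases before that start. The window of the other Cdkn1a start held none of the 3 motifs and no p53 decamer. Such decamers were found in 8.36% of all windows and in 2 of the 65 windows of the members. A match is a description of the letters and not a mapped binding site.

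Of the 73 members, 57 had a window in the table, 65 windows in all. The E2F core was in 32.3% of these and in 9.57% of all 32851 windows in the table. A CHR was in 27.7% against 19.2%, a CCAAT box in 61.5% against 37.4%, and both of the last in 24.6% against 7.53%. Windows of the 250 bases before the start were also counted before the longer ones were used. In them the shares were 26.2% against 7.89% for the E2F core, 21.5% against 17.2% for the CHR and 58.5% against 33.9% for the CCAAT box, so the difference for the CHR was smaller. By role, all 6 mitotic and G2 genes with a window held both a CHR and a CCAAT box. Among the replicative MCM genes, 4 of 5 held an E2F core and 5 of 5 a CCAAT box. Of the 8 transcriptional and CDK-activating kinases with a window, none held an E2F core or a CHR and 2 held a CCAAT box.

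**Figure D1:**
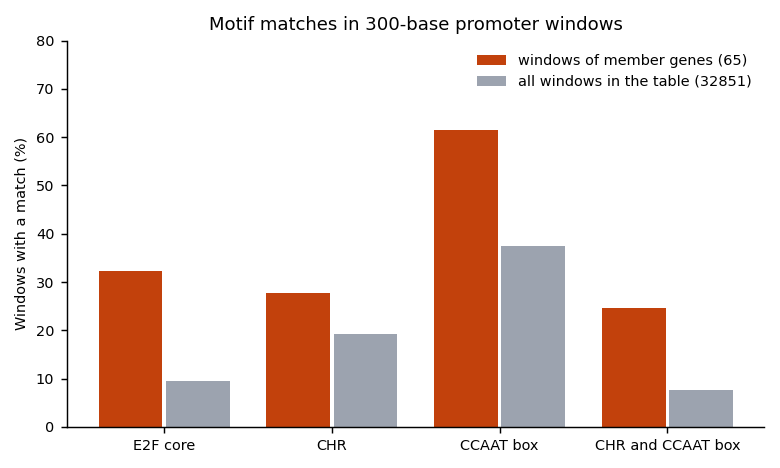
Share of 300-base promoter windows (y axis, percent) with a match to each motif, or to both CHR and CCAAT box, in the 65 windows of the members and in all 32851 windows of the table. For the E2F core the bars stand at 32.3% and 9.57%.

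The libraries held 61632784 reads (DMSO) and 57705874 reads (GANT61), with 1 library per group. There was therefore no replicate check, no test between the conditions and no p-value. Each ratio below is the GANT61 over the DMSO library after scaling. Its 95% exact Clopper-Pearson interval reflects counting error alone: without molecular identifiers, several reads can stem from the same molecule. A gene counted as higher or lower where the ratio was at least 1.5, or at most 0.667, the interval excluded 1 and the mean level was at least 1 CPM, that is, counts scaled to the size of the library. Both libraries contained markers of cells other than macrophages, against the label of a macrophage line. None of 77 markers in 10 lists had 0 reads in either library, though Wap, Elane and Mpo had a mean below 1 CPM. Macrophage markers summed to 2540 CPM in the DMSO and 7837 CPM in the GANT61 library, with 10 of 12 higher and 1 lower. Adipocyte markers summed to 6004 and 929 CPM, with 8 of 8 lower, and basal and stratified epithelial markers to 722 and 1319 CPM, with 5 of 6 higher. Simple and luminal epithelial markers summed to 2998 and 2182 CPM, and fibroblast markers to 9215 and 9421 CPM. The part of these differences in the results below was not tested, and a change in the number of cells of a type cannot be told apart from a change in RNA per cell. Of the Hedgehog readouts, Hhip was lower, at a ratio of 0.640 (0.588 to 0.696), and Ptch1 was at 1.02 (0.945 to 1.1).

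As a group the cell cycle genes were slightly higher in the GANT61 library, and few moved far. Of 69 members above 1 CPM, 7 were higher, 3 lower and 59 neither. This is 10.1% higher and 4.35% lower, where 14.1% of all 13939 genes considered were higher and 10.3% lower, so the share past the rule was below that of all genes. The median log2 ratio of the members was 0.23, and that of all genes was -0.01. With the interval alone and no limit on size, 44 of the 69 members (63.8%) lay above 1 and 11 (15.9%) below, against 39.1% and 40.5% of all genes. Most members were thus displaced by small amounts. The remaining 4 members were below 1 CPM. Ccnb3, a meiotic B-type cyclin, had 0 reads in both, which allows up to 0.0479 and 0.0528 CPM. Ccna1, the germline A-type cyclin, had 0 and 2 reads in the DMSO and GANT61 libraries, Cdk15 had 7 and 9, and the CDK5 activator Cdk5r2 had 18 and 3.

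**Figure D2:**
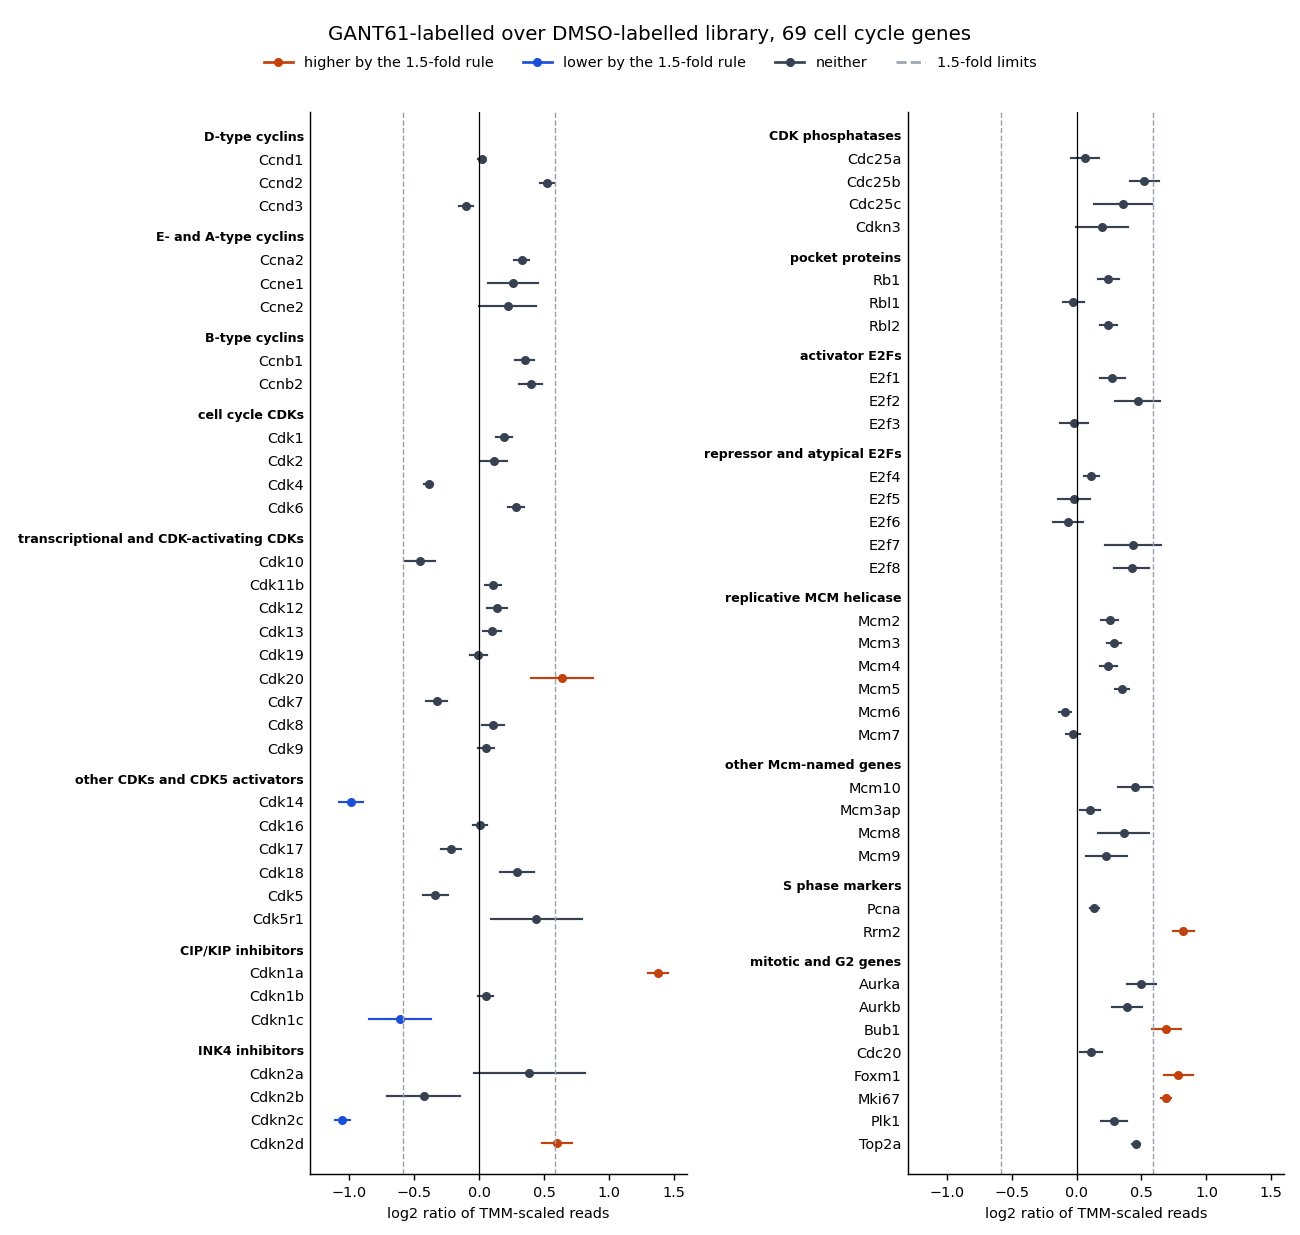
Log2 ratio of scaled reads, GANT61 over DMSO library (x axis), for the 69 members above 1 CPM, grouped by role. Points are ratios, bars are 95% counting intervals and dashed lines are the 1.5-fold limits; Cdkn1a stands farthest right at 1.38 and Cdkn2c farthest left at -1.05.

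The CDK inhibitors held the largest differences in both directions. Cdkn1a encodes p21, an inhibitor induced by p53 and by other signals, and lies on chromosome 17 at 29090979 to 29100722 (GRCm38.p6). It had 1948 reads (31.1 CPM) in the DMSO and 4595 reads (80.9 CPM) in the GANT61 library, a ratio of 2.60 (2.46 to 2.74). Cdkn1b, which encodes p27, a mediator of quiescence, measured 75.5 and 78.2 CPM, for a ratio of 1.04 (0.994 to 1.08) whose interval includes 1. Cdkn1c, which encodes the imprinted inhibitor p57, had 391 and 233 reads and was lower, at 0.657 (0.556 to 0.774), just past the limit. With the gene length trend removed it was at 0.678 and no longer met the rule. The CIP/KIP family thus had a higher member, a lower member and one whose interval includes 1.

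Among the INK4 inhibitors the 2 abundant members differed in opposite directions. Cdkn2c, which encodes p18, lies on chromosome 4 at 109660876 to 109666756. It had 7285 reads (116 CPM) and 3190 reads (56.1 CPM), a ratio of 0.482 (0.462 to 0.503). Cdkn2d, which encodes p19 of the INK4 family, was at 16.9 and 25.6 CPM and narrowly passed the rule at 1.51 (1.40 to 1.64). It no longer did so, at 1.47, when the libraries were scaled by total count. Cdkn2a and Cdkn2b, neighbours on chromosome 4, had few reads. Cdkn2a had 86 and 102 reads, which gave a ratio of 1.31 (0.971 to 1.76), and its count pools the transcripts of 2 proteins, p16 and p19Arf. Cdkn2b, which encodes p15, had 268 and 181 reads, which gave a ratio of 0.745 (0.613 to 0.902). Neither of these 2 met the rule. Beside the lower INK4 member, all 8 adipocyte markers were lower, with a median log2 ratio of -2.69, and the part of this in the Cdkn2c result was not tested.

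The sum over the 7 inhibitors differed little, although single members and the sums of the CIP/KIP and INK4 families differed in opposite directions. In RPKM, which divides reads by gene length and library total and so allows levels to be compared between genes, the 7 inhibitors summed to 94.5 in the DMSO and 97.3 in the GANT61 library. The CIP/KIP genes alone summed to 39.6 and 58.7 RPKM, and the INK4 genes alone to 54.9 and 38.6 RPKM. Cdkn2c made up 43.4% of the sum of all 7 in the DMSO library and 20.2% in the GANT61 library. Cdkn1a made up 12.8% and 32.2%, while Cdkn1b stayed at 26.3% and 26.4%. The most abundant inhibitor was therefore Cdkn2c in the DMSO library and Cdkn1a in the GANT61 library. Read for read, the ratio of Cdkn1a to Cdkn2c was 5.39 times as large (5.03 to 5.77, exact conditional interval) in the GANT61 library.

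**Figure D3:**
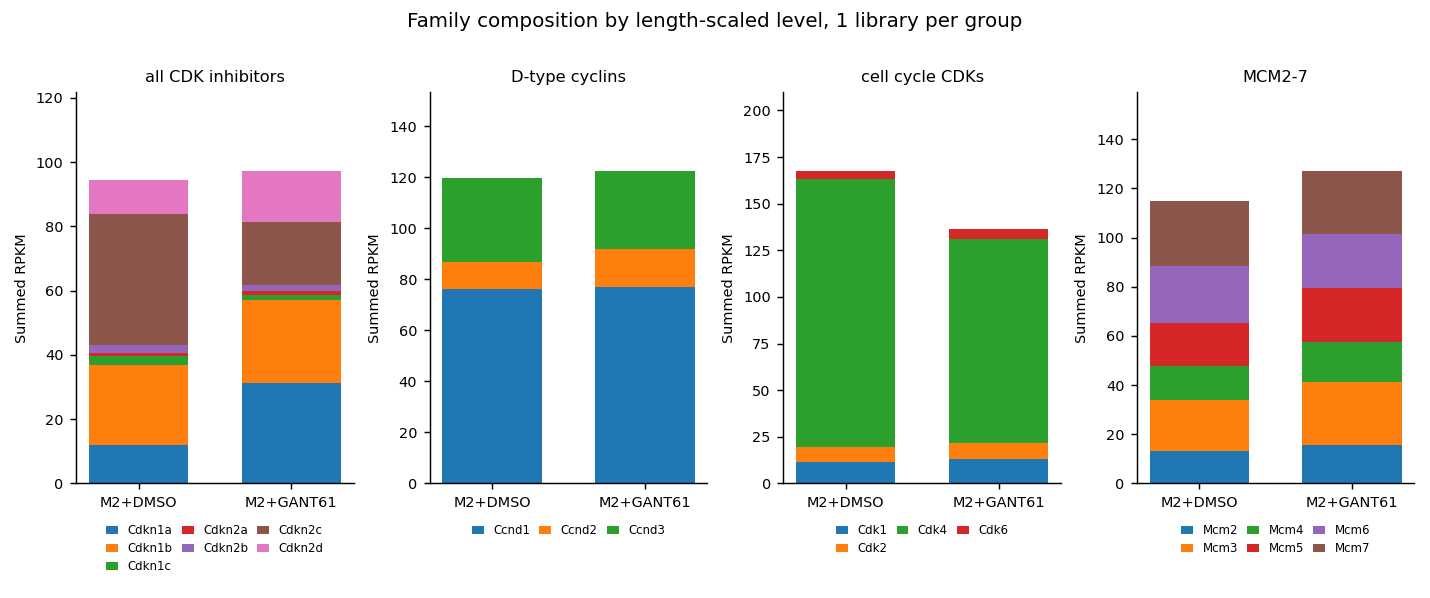
Summed RPKM (y axis, from 0) of 4 families in each library, with each gene as a coloured segment. The inhibitor bars are about equally tall, 94.5 and 97.3, while the Cdkn2c segment is smaller and the Cdkn1a segment larger in the GANT61 library.

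The D-type cyclins, which start the G1 programme, differed little in sum, at 119.7 and 122.6 RPKM. Ccnd1, the most abundant cyclin per length among the members, was at 365 CPM in the DMSO and 369.9 CPM in the GANT61 library. Its ratio was 1.01 (0.995 to 1.03). Ccnd2 measured 76.3 and 109.6 CPM, for a ratio of 1.44 (1.38 to 1.49), below the size limit. Ccnd3 measured 93.97 and 87.5 CPM, for a ratio of 0.931 (0.897 to 0.967). None of the 3 met the rule. Within the family the Ccnd2 share was 8.76% in the DMSO and 12.2% in the GANT61 library, and Ccnd1 held 63.7% and 62.8%.

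Cdk4, the partner of the D-type cyclins, was the most abundant member per length in the DMSO library, at 144 RPKM, and second after Pcna in the GANT61 library, at 109.5 RPKM. Its ratio of 0.764 (0.746 to 0.783) was the lowest of the 4 cell cycle kinases and did not reach the limit. Cdk6, the alternative partner, was at 1.22 (1.17 to 1.27), so the read ratio of Cdk4 to Cdk6 was 0.628 times as large (0.598 to 0.659) in the GANT61 library. Cdk1, the mitotic kinase, measured 62.9 and 71.9 CPM, for a ratio of 1.14 (1.10 to 1.195), and Cdk2, the S phase kinase, had 24.0 and 26.0 CPM, which gave a ratio of 1.08 (1.01 to 1.16). The levels of the D-type cyclin partners were Cdk4 at 258 and 197 CPM and Cdk6 at 66.7 and 81.3 CPM.

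Cyclins of the later phases had ratios above 1 and below the limit, and the interval of Ccne2 includes 1. The E-type cyclins, which act at the entry to S phase, had ratios of 1.199 (1.05 to 1.37) for Ccne1, with 439 and 478 reads, and 1.16 (0.999 to 1.36) for Ccne2, with 335 and 354 reads. Ccna2, the A-type cyclin of S phase and G2, measured 67.5 and 84.7 CPM, for a ratio of 1.254 (1.203 to 1.31). The B-type cyclins of mitosis were close to it, Ccnb1 at 1.27 (1.21 to 1.34) and Ccnb2 at 1.32 (1.24 to 1.40). The scaled levels behind these were Ccnb1 at 42.9 and 54.6 CPM and Ccnb2 at 30.7 and 40.4 CPM. These 3 mitotic cyclins kept nearly equal shares of their summed RPKM in both libraries, 34.2%, 31.7% and 34.1% in the DMSO and 33.5%, 31.5% and 35.03% in the GANT61 library for Ccna2, Ccnb1 and Ccnb2.

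**Figure D4:**
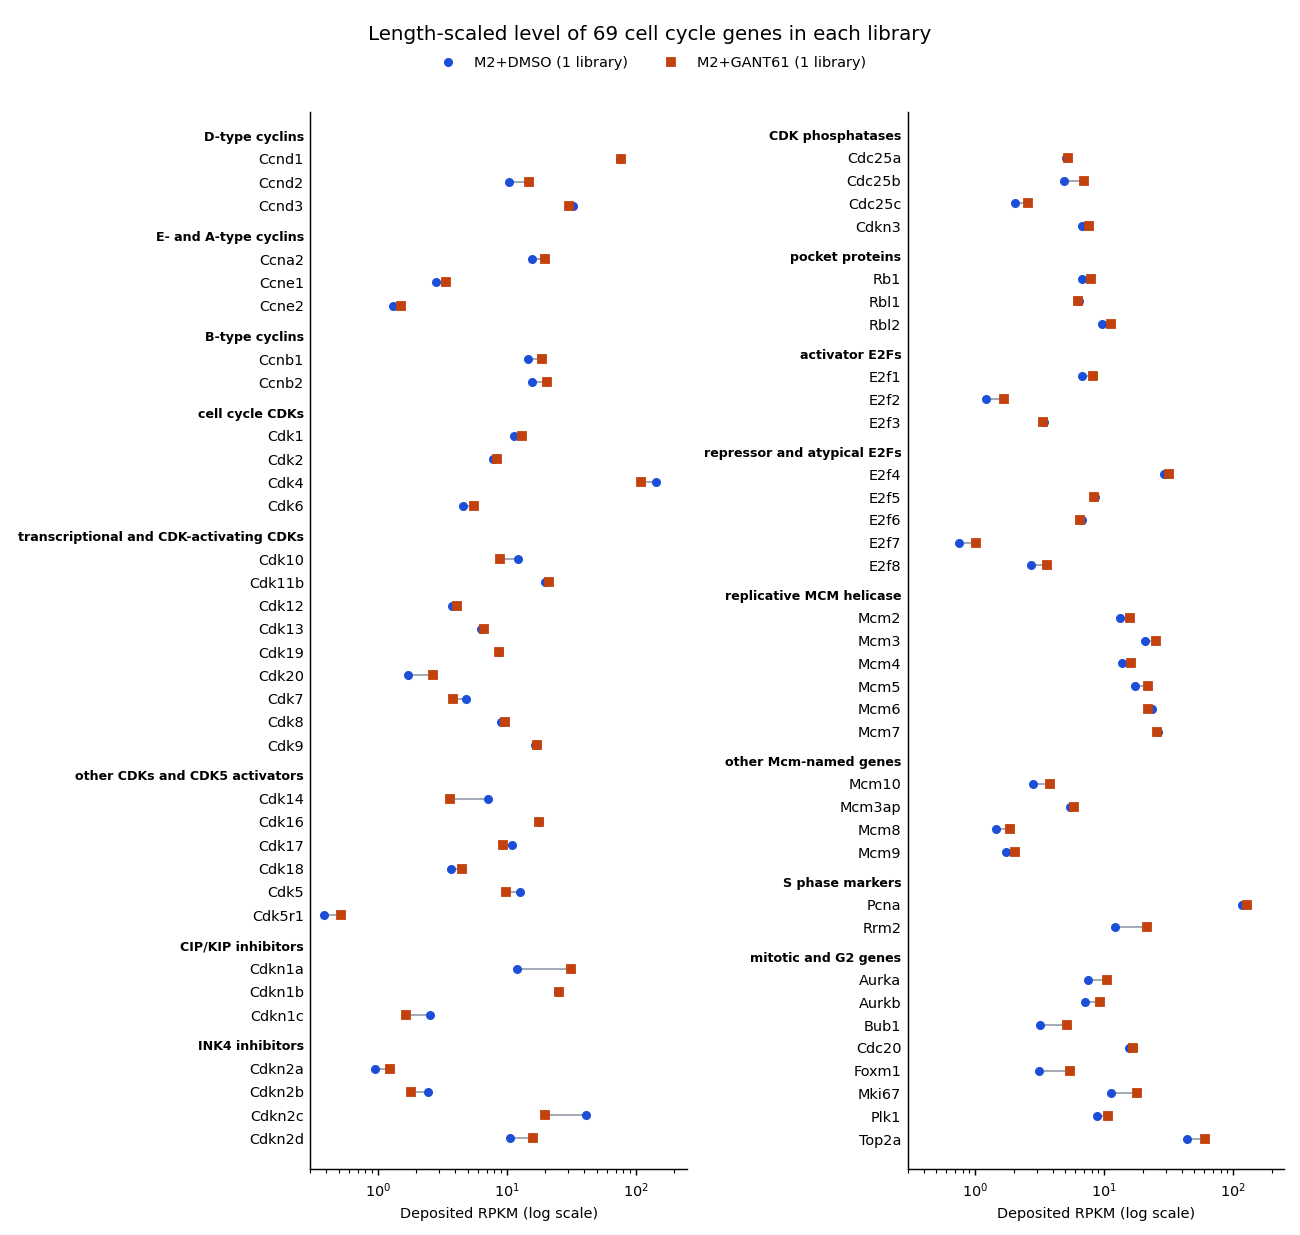
Deposited RPKM on a log scale (x axis) of the 69 members above 1 CPM in the DMSO (circles) and GANT61 (squares) libraries, grouped by role. Cdk4, Pcna, Ccnd1 and Top2a are the 4 most abundant members in both, and Cdkn2c ranks 5 in the DMSO library and 17 in the GANT61 library.

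Mitotic and G2 genes were the role with most members on the higher side. The intervals of all 8 lay above 1, against 39.1% of all genes, and the median log2 ratio of the role was 0.48. By the rule 3 of 8 were higher (37.5%, against 14.1% of all genes). All intervals also lay above 1 in 3 smaller roles: 2 B-type cyclins above 1 CPM, 2 S phase markers and 4 other Mcm-named genes. The median of the S phase markers was also 0.48. Foxm1, a transcription factor of G2 and mitosis, was at 17.3 CPM in the DMSO and 29.8 CPM in the GANT61 library, a ratio of 1.72 (1.596 to 1.86). Bub1, a kinase of the spindle checkpoint, measured 17.5 and 28.2 CPM, for a ratio of 1.61 (1.49 to 1.75). Mki67, the proliferation marker Ki-67, measured 143 and 229.6 CPM, for a ratio of 1.61 (1.57 to 1.65). With the trend of the ratio with gene length removed, Mki67 was at 1.485 and no longer met the rule. The other 5 had lower ratios. Top2a, the topoisomerase that untangles chromosomes, measured 291 and 399.6 CPM, for a ratio of 1.37 (1.35 to 1.40). The Aurora kinase genes Aurka, with 18.7 and 26.4 CPM, and Aurkb, with 17.7 and 23.2 CPM, were at 1.41 (1.31 to 1.53) and 1.31 (1.21 to 1.42). Plk1, which drives entry into mitosis, had 24.7 and 30.1 CPM and a ratio of 1.22 (1.14 to 1.31), and Cdc20, the activator of the anaphase-promoting complex, at 1.08 (1.02 to 1.15). The spread within the role, from Cdc20 to Foxm1, was 0.11 to 0.78 on the log2 scale.

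The 2 S phase markers differed from each other. Rrm2, the regulatory subunit of ribonucleotide reductase, which supplies nucleotides for DNA synthesis, measured 33.4 and 59.1 CPM, for a ratio of 1.77 (1.67 to 1.87). Pcna, the sliding clamp of DNA polymerase, measured 186 and 205 CPM, for a ratio of 1.1 (1.07 to 1.13). Relative to Pcna, Rrm2 reads were 1.61 times (1.51 to 1.71) and Mki67 reads 1.46 times (1.41 to 1.52) as frequent in the GANT61 library. The replicative helicase also split. Mcm2, Mcm3, Mcm4 and Mcm5 had ratios of 1.19 (1.14 to 1.249), 1.22 (1.18 to 1.27), 1.19 (1.13 to 1.24) and 1.28 (1.23 to 1.33). Mcm6 and Mcm7 were at 0.943 (0.913 to 0.973) and 0.983 (0.947 to 1.02). None met the rule, and the summed level of the 6 subunits was 115 RPKM in the DMSO and 127 RPKM in the GANT61 library. Each subunit was well covered, with Mcm2 at 56.5 and 67.4 CPM, Mcm3 at 79.7 and 97.3 CPM, Mcm4 at 62.2 and 73.7 CPM, Mcm5 at 75.1 and 95.7 CPM, Mcm6 at 131 and 123 CPM and Mcm7 at 95.8 and 94.1 CPM. Mcm5, Mcm6 and Mcm7 were among 12 members whose deposited counts lay more than 0.1 from a whole number in a library. Some of their reads may therefore be shared with other genes. The others were Ccnd1, Ccnd3, Ccna2, Ccne2, Cdk4, Cdk7, Cdk16, Rbl2 and Mcm3ap. Smaller distances were found for further members, among them Cdkn1a, Cdkn2c and Cdk14. The distance does not measure how many reads are shared. Of the other genes with an Mcm name, Mcm10, which helps to switch on the helicase, had the highest ratio at 1.37 (1.248 to 1.49), and Mcm3ap, an mRNA export factor rather than a helicase, the lowest at 1.07 (1.02 to 1.13). Mcm8 and Mcm9, which act together in DNA repair, were at 1.29 (1.12 to 1.48) and 1.17 (1.05 to 1.31).

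E2F factors and pocket proteins had ratios from 0.956 to 1.39. Of these 11 members 0 were past the rule, where 24.4% of all genes were, in either direction. Of the activators, E2f1 was at 1.21 (1.13 to 1.30), E2f2 at 1.39 (1.23 to 1.57) and E2f3 at 0.987 (0.914 to 1.06). The repressors of resting cells, E2f4 and E2f5, were at 1.08 (1.04 to 1.13) and 0.985 (0.905 to 1.07), and E2f6 was at 0.956 (0.883 to 1.04). Levels of these 6 were E2f1 at 26.5 and 32.1 CPM, E2f2 at 7.69 and 10.7 CPM, E2f3 at 23.0 and 22.7 CPM, E2f4 at 73.8 and 79.8 CPM, E2f5 at 18.6 and 18.3 CPM and E2f6 at 21.4 and 20.5 CPM. The atypical repressors E2f7 and E2f8, which are themselves switched on in S phase, were at 1.35 (1.17 to 1.57) and 1.34 (1.22 to 1.47). Their levels were E2f7 at 5.26 and 7.11 CPM and E2f8 at 13.3 and 17.8 CPM. E2f4 alone made up 49.4% of the summed E2F level in RPKM in the DMSO and 49.3% in the GANT61 library. Rb1 was at 1.18 (1.12 to 1.251), Rbl1 at 0.983 (0.930 to 1.04) and Rbl2 at 1.19 (1.13 to 1.24). The pocket protein genes stood with Rb1 at 39.5 and 46.7 CPM, Rbl1 at 43.6 and 42.9 CPM and Rbl2 at 59.5 and 70.6 CPM. Foxm1 reads relative to E2f1 reads were 1.42 times (1.28 to 1.58) as frequent in the GANT61 library.

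The Cdc25 phosphatases, which remove the inhibitory phosphates from CDKs, had ratios between 1.05 (0.970 to 1.13) for Cdc25a and 1.44 (1.33 to 1.55) for Cdc25b. Cdc25c lay between them at 1.28 (1.10 to 1.498), and Cdkn3, another CDK phosphatase, was at 1.14 (0.997 to 1.31). Kinases outside the cell cycle proper were spread on both sides. Cdk14, which pairs with cyclin Y at the plasma membrane in Wnt signalling, lies on chromosome 5 at 4803384 to 5380251. It had 3052 reads (48.8 CPM) and 1402 reads (24.7 CPM), a ratio of 0.506 (0.475 to 0.539), and was the only kinase that was lower by the rule. Cdk20, linked to CDK activation and to primary cilia, had 248 and 351 reads and was higher at 1.56 (1.32 to 1.84). The other transcriptional and CDK-activating kinases ranged from 0.729 (0.674 to 0.789) for Cdk10 to 1.10 (1.04 to 1.16) for Cdk12. Cdk7, of the CDK-activating kinase, was at 0.798 (0.754 to 0.845). Cdk8 and Cdk19 of Mediator were at 1.08 and 0.995, and Cdk9, which releases paused polymerase, at 1.04. Cdk11b and Cdk13 were at 1.08 (1.03 to 1.12) and 1.07 (1.02 to 1.12). The PCTAIRE kinase genes Cdk16, Cdk17 and Cdk18 were at 1.005 (0.966 to 1.05), 0.861 (0.816 to 0.908) and 1.22 (1.12 to 1.34). Cdk5, best known from neurons, was at 0.791 (0.740 to 0.845), while its activator Cdk5r1 had 126 and 155 reads, which gave a ratio of 1.35 (1.06 to 1.73). The lowest ratio past neither limit was that of Cdk10, and the highest those of Ccnd2 and Cdc25b, both 1.44.

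Other cell cycle genes, outside the 73, were read from lists chosen by function. Over all genes 14.1% were higher and 10.3% lower, and the counts of each list are read against these shares. In the mitotic spindle and kinetochore list 7 of 40 (17.5%) were higher and 0 lower. The share of higher genes was near that of all genes. The list had a median log2 ratio of 0.34, and the intervals of 34 (85%) lay above 1, against 39.1% of all genes. Its largest ratios were those of the separase gene Espl1 at 1.998 (1.82 to 2.20), the cytokinesis scaffold Anln at 1.92 (1.85 to 1.99), Kif2c at 1.89 (1.76 to 2.04) and the kinesin Kif4 at 1.63 (1.499 to 1.78). In the S phase and origin licensing list 1 of 48 was higher and 0 lower, and the median was 0.22. The higher gene was Pole, a DNA polymerase subunit, at 1.86 (1.71 to 2.02). In the DREAM and MuvB list 1 of 9 was higher, Mybl2 at 1.89 (1.71 to 2.09), and the median was -0.11. Ubiquitin ligases and CDK-modifying kinases had 0 higher and 1 lower of 23, Skp1a at 0.600 (0.587 to 0.613), with a median of -0.10. Of 14 other cyclins 1 was higher, the Cdk9 partner Ccnt1 at 1.54 (1.40 to 1.70), and the median was 0.08. No list was tested.

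Growth-arrest genes lay in both directions, as the inhibitors did. Of 23 p53 and growth-arrest genes above the floor, 7 were higher (30.4%, against 14.1% of all genes) and 3 lower (13.0%, near the 10.3% of all genes), and their median was 0.23. Gadd45b, a stress sensor that NF-kappaB also induces, had a ratio of 3.19 (2.95 to 3.46), and Mxd1, an antagonist of Myc, of 3.02 (2.88 to 3.17). The p53-responsive kinase gene Plk3 was at 2.58 (2.38 to 2.80). Of the other Gadd45 genes, Gadd45a was lower at 0.465 (0.444 to 0.487), and Gadd45g, named after its value was seen, was at 1.06 (0.980 to 1.15). Beside these genes and the mitotic genes, several marker lists were higher. Macrophage markers had a median log2 ratio of 1.07, basal and stratified epithelial markers of 1.34 and skeletal muscle markers of 1.39, with 5 of 5 higher and sums of 18.7 and 57.1 CPM. Neutrophil and mast cell markers summed to 180.1 and 724 CPM, with 3 of 7 higher and 1 lower. Their part in both results was not tested.

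**Figure D5:**
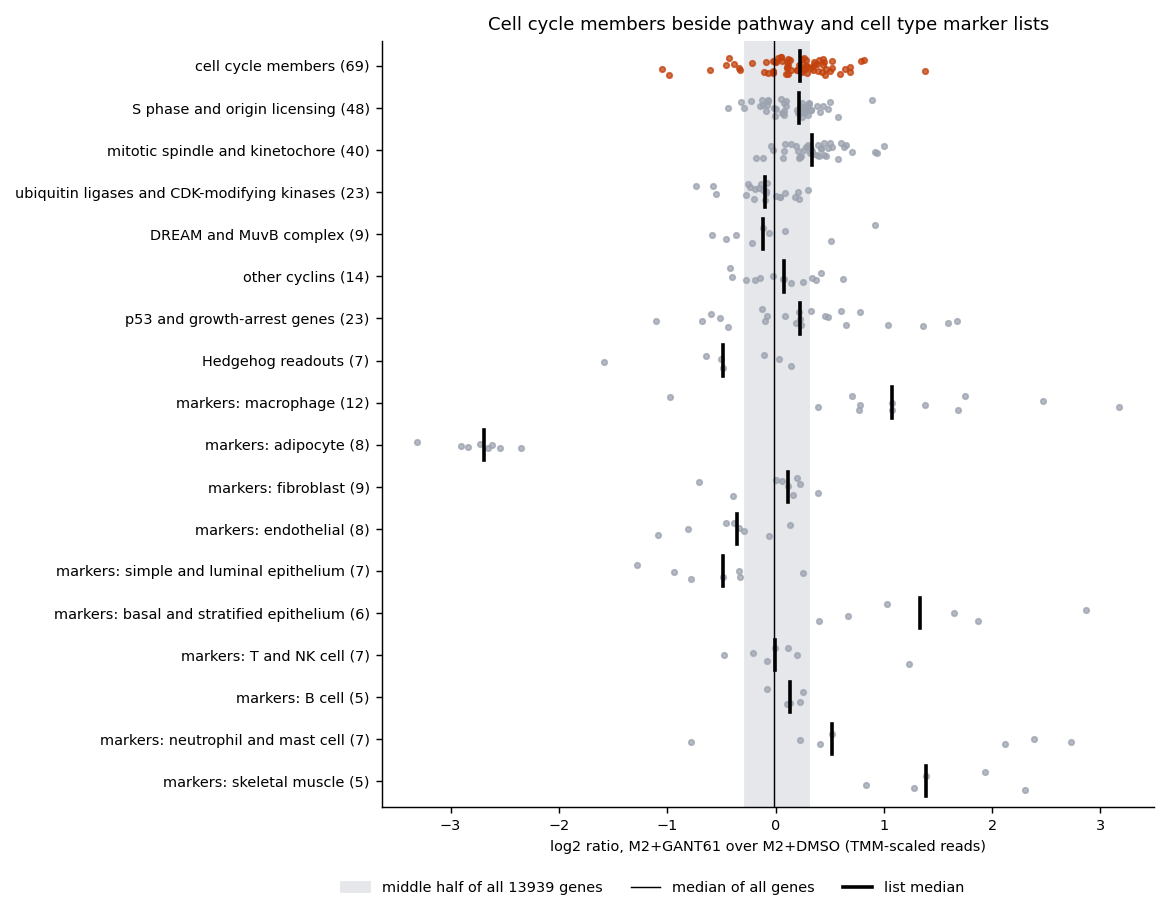
Log2 ratio of scaled reads (x axis) of each gene above 1 CPM in the members, 6 pathway lists, the Hedgehog readouts and 10 lists of cell type markers, with numbers of genes in brackets. Black bars are list medians and the shaded band is the interquartile range of all genes; the members' median is 0.23, and those of the macrophage and adipocyte markers are 1.07 and -2.69.

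The promoter motifs and the ratios were set side by side for the 53 members that had both a window and at least 1 CPM. The 16 members with both a CHR and a CCAAT box in a window had a median log2 ratio of 0.34, and the other 37 had 0.14. Members with an E2F core (18) had 0.32 and those without (35) had 0.19. Over all genes the medians were 0.03 with both CHR and CCAAT box (753 genes) and -0.02 without (10146 genes), and -0.03 with an E2F core and -0.01 without. Cdkn1a and Cdk14, with large differences in opposite directions, had none of the 3 motifs in their windows. These medians are descriptions of 2 libraries and carry no test.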

How the data were processed

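Total RNA was sequenced with Illumina library protocols, per the labels. The authors deposited raw estimated counts per gene and RPKM values. The submitters' processing notes name mm10 and hg19 as builds, and Partek, SAMtools, cutadapt, HISAT2 and STAR as tools. Their roles and versions, the annotation and the use of strand are not given in the sources used here, and reads from overlapping and antisense genes cannot be separated. Each column was assigned through the treatment it names, although the numbers beside the treatment are not those of the sample titles. Of the deposited counts, 29.5% and 29.8% were not whole in the GANT61 and DMSO libraries, and they were rounded to whole numbers first. Library totals were multiplied by trimmed-mean-of-M-values (TMM) factors from edgeR 4.0.16 in R 4.3.3. Ratios used a prior count of 0.5, and Clopper-Pearson intervals came from scipy 1.17.1. The calculation was tested on simulated counts, where the intervals covered the true ratio less often than their nominal level for most of the changed folds; the first limit set on this coverage was missed and then relaxed, with the calculation left as it was. With 1 library per group no test between groups was possible. A count of 0 allows up to 3 counts, for counting error only. Alternatives were DESeq2 1.42.0 size factors, total counts, deposited RPKM, other floors, folds and priors, and removal of the gene length trend.

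Every member was accounted for. The rule asked for full values for members past the limits and, whatever their values, the main cyclins, CDKs, inhibitors, E2F, MCM and proliferation genes, and for ranges for the rest; here some have a ratio and either reads or CPM only. Up to 4 genes past the rule were named per pathway list. Some results are not reported here. The members and all lists were chosen with earlier results of these data known. The p53 decamer and the pairs of genes compared with each other were chosen after the values had been seen. Promoter sequences and gene coordinates come from RefSeq (GRCm38.p6).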

Additional observations from a re-analysis of the deposited data

How the results depend on the processing

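The median log2 ratio of the members stayed between 0.18 (total count scaling) and 0.24 (no filter on low counts) over the 9 alternatives run, with 0.23 in the main analysis. The numbers past the rule, 7 higher and 3 lower, were within 1.5 times in all alternatives that kept the 1.5-fold limit. With a limit of 2-fold they were 1 higher (Cdkn1a) and 1 lower (Cdkn2c), and with the smaller alternative limit 23 higher and 8 lower. Of all 13939 genes, 972 were higher and 595 lower with the limit of 2-fold, and 3347 and 2993 with the smaller limit. With the smaller limit, the share of the 69 members that was higher was therefore above that of all genes. With the limits of 1.5-fold and 2-fold that share was below the one of all genes. The share of members that was lower was below that of all genes with each limit. Total count scaling took Cdkn2d to 1.47, and removing the gene length trend took Mki67 to 1.485 and Cdkn1c to 0.678, all short of the limit. Without the filter Cdk5r2 was also lower. No member past the rule changed direction. Under total count scaling 50 rather than 52 members had a ratio above 1, so the side of 1 of members near equal levels depends on scaling. No paired analysis was possible because each group has 1 library, and no library could be left out for the same reason. Depth limits most the 12 members above 1 CPM with fewer than 500 reads in a library: Cdkn2a, Cdk5r1, Cdkn2b, Cdkn1c, Cdk20, Cdc25c, E2f7, Ccne2, Mcm8, Cdkn3, Ccne1 and E2f2. The E2F core, CHR and CCAAT shares of the promoter windows were lower without the 50 bases after the start. That alternative was chosen after seeing the data. Because the shorter windows are part of the longer ones, their shares could only be equal or lower. The shares stayed inside the counting intervals of the longer windows, which is therefore no separate check.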
